A study of Mus musculus with 6 samples.

Results

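Cholesterol is built from acetyl-CoA by a chain of enzymes that leads through mevalonate and squalene to lanosterol and then, by stepwise removal of methyl groups and shifting of double bonds, to cholesterol. The chain is controlled in the membrane of the endoplasmic reticulum, where Scap carries the transcription factors Srebf1 and Srebf2 towards activation when sterol is scarce and the Insig proteins hold them back when it is plentiful. Mouse oocytes are known for making little cholesterol of their own and for receiving it from the cumulus cells around them. The genes described here were 30 rows of the deposited expression table of 53656 gene symbols, taken by name: 18 synthesis enzymes, 5 genes of sterol sensing and 7 of transport, storage and conversion.

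Oocytes were taken from mouse ovaries by hand and their RNA was sequenced in 6 libraries, 3 from wild-type animals (WT) and 3 carrying a knockout of Khdc3 (KO), a gene of the subcortical maternal complex of the egg. The labels give no age, strain, construct or pooling of animals and do not state that each replicate is a different animal, and p-values here speak only of the spread among these libraries. Expression was given as RPKM, in which reads are divided by gene length and by library size, and corresponded to library totals of 34640170 to 43343444 reads. Khdc3 itself stood at 423 to 502 RPKM in the WT libraries and at 0.113 to 0.224 RPKM in the KO libraries, as all 6 labels have it. The summed level of 12 oocyte markers was 12341 to 13674 RPKM over the 6 libraries. That of 22 granulosa and cumulus cell markers was 214 to 356 RPKM in WT and 397 to 522 RPKM in KO. The second principal component (18.1% of the variance) set KO replicate 1 apart from KO replicates 2 and 3.

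Of the 30 genes, 29 reached 1 RPKM in 3 libraries or more and were tested with limma on log2(RPKM + 1), with adjustment over all 12272 tested genes. Of these, 3 were called higher in KO at an adjusted p under 0.05 and 0 were called lower. Of all tested genes 2.74% were called, 1.6% higher and 1.14% lower. The 3 were Cyp7b1, a hydroxylase that acts on oxysterols, Sc5d, the desaturase that acts near the end of cholesterol synthesis, and Npc1, which moves cholesterol out of the lysosome. Cyp7b1 passed the filter only through its KO values, so it could enter the test only by being higher there. Ebp, at 1 RPKM or more in 4 libraries of which 1 was WT, also needed KO values to pass. So did Mvk, with 3 such libraries of which 1 was WT. Cyp7b1 and Ebp remain in the counts of higher members. The changes of the 29 genes had a median of 0.08 on the log2 scale, against 0.01 over all tested genes, and the median was 0.02 without WT replicate 3. At an unadjusted p under 0.05, 6 of the 29 were higher and 1 lower, and 19.0% of all tested genes passed that mark in either direction.

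**Figure D1:**
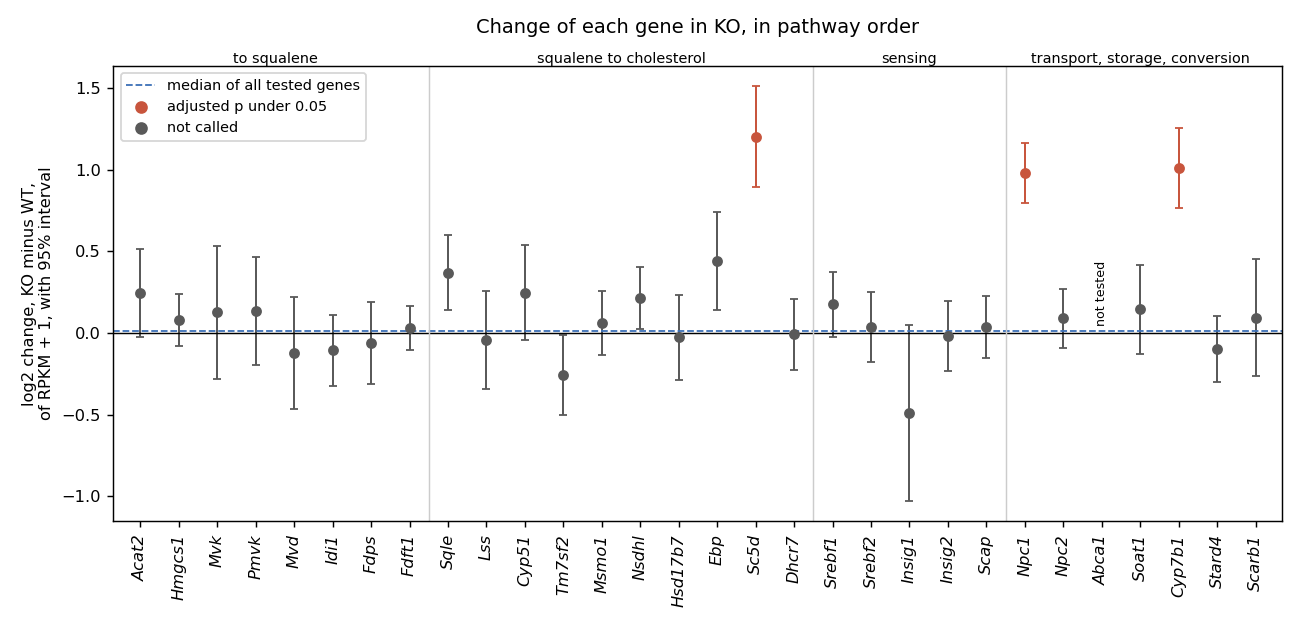
Change of each gene in KO against WT on the log2(RPKM + 1) scale (y axis) in pathway order (x axis), with bars for the 95% interval from limma and a dashed line for the median of all tested genes, 0.01. Sc5d, Npc1 and Cyp7b1 lie between 0.98 and 1.20 and the other tested genes between -0.49 and 0.44.

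Upstream sequences are shown for 3 enzymes so that a called gene can be set beside uncalled ones: Sc5d, which rose, Ebp, which acts just before it, and Hmgcs1, near the head of the chain. Each run is the 250 bases before the annotated start (RefSeq, GRCm38.p6), written 5′ to 3′ along the gene's strand. Capitals mark matches on either strand to the sterol regulatory element TCACNCCAC, the E-box CACGTG or the CCAAT box, which reads ATTGG on the other strand. None of these motifs contains another. The regions are chr9:42264301-42264550 (minus strand) for Sc5d, chrX:8193513-8193762 (minus strand) for Ebp and chr13:119690101-119690350 (plus strand) for Hmgcs1.
Sc5d: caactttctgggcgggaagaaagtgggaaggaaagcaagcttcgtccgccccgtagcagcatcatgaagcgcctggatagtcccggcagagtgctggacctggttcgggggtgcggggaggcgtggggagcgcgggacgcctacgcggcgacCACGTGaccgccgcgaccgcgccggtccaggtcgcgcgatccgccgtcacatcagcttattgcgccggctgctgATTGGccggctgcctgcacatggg
Ebp: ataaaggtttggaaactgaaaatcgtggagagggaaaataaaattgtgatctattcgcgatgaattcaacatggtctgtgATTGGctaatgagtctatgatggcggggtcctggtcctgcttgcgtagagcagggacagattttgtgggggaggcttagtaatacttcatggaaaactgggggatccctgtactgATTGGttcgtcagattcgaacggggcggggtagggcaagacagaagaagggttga
Hmgcs1: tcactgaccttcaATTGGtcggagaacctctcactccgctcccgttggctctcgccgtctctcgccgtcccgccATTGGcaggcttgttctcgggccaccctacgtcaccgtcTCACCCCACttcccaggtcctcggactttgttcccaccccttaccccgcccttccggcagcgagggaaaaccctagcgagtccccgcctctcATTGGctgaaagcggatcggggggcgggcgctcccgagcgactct

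The Sc5d region held 1 E-box, 98 to 93 bases before the start, and 1 CCAAT box, 24 to 20 bases before it. The Hmgcs1 region held the letters of the sterol element 137 to 129 bases before the start, together with 3 CCAAT boxes, and the Ebp region held 2 CCAAT boxes alone. In all, 31 annotated starts of 23 of the 30 genes could be read. The sterol element was found before 1 of these starts, against 1.05% of 32851 starts of all genes. The E-box was found before 6 of the 31, against 6.02% of all starts, and the CCAAT box before 21 of the 31, against 33.8%. A match is a run of letters and does not show that a factor bound there.

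In WT oocytes the enzymes of the chain were expressed at very unequal levels. The mean RPKM of the 18 synthesis enzymes ran from 0.864 for Ebp to 158 for Fdft1, with 9 of them under 3 RPKM and 4 above 20 RPKM. Among all genes of the table, Fdft1 ranked 260 and Hmgcs1 483 in WT, while Mvk ranked 12299 and Ebp 12448. RPKM corrects for gene length, so these levels can be set beside each other, although the length used for a gene takes in all its annotated exons.

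**Figure D2:**
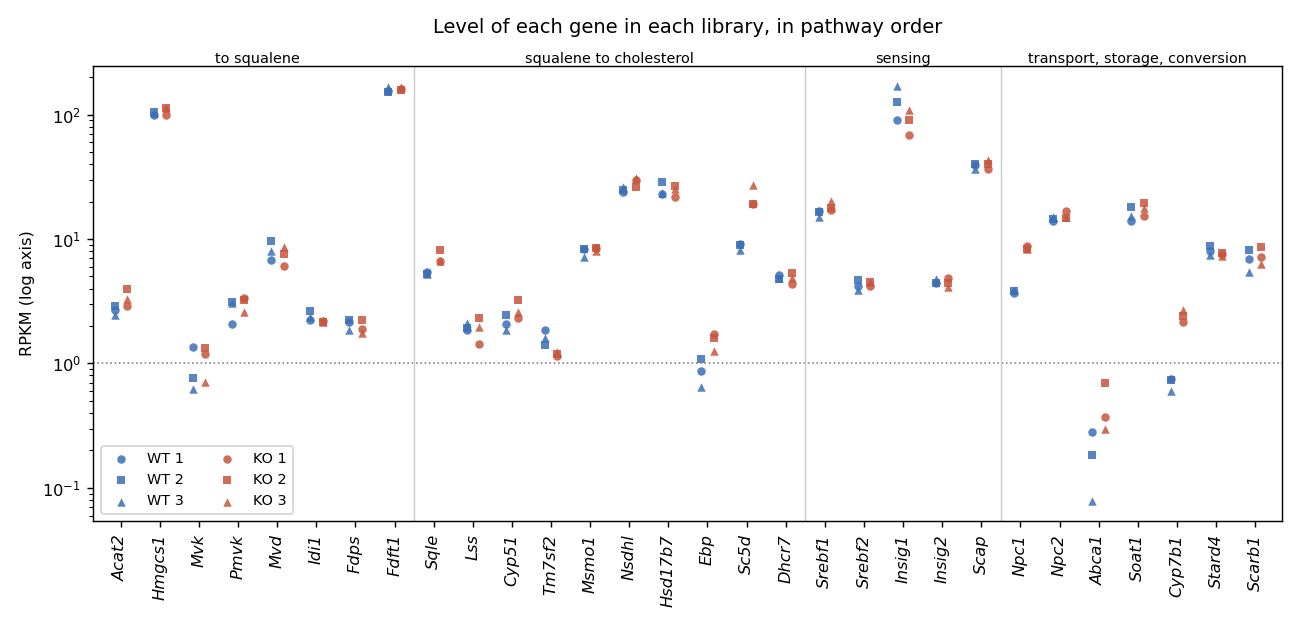
RPKM of each gene on a log axis in each of the 6 libraries, WT in blue and KO in red, with a dotted line at 1 RPKM. Fdft1, Hmgcs1 and Insig1 form the top of the range and Abca1, Cyp7b1, Ebp and Mvk its foot.

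Of the 8 members that act from acetyl-CoA to squalene, 0 were called. Their median change was 0.05, and 0 of the 8 passed an unadjusted p of 0.05. These members do not include every enzyme of these steps. Acat2, which joins a pair of acetyl-CoA molecules, stood at 2.69, 2.89 and 2.47 RPKM in WT replicates 1, 2 and 3 and at 2.89, 3.97 and 3.28 RPKM in KO replicates 1, 2 and 3. The KO values lay above the WT values, but the lowest of them reached the highest WT value within 0.01 RPKM, and the change of 0.24 ± 0.12 on the log2 scale (SE; limma, adjusted p = 0.30) was not called. Hmgcs1, which makes HMG-CoA, was abundant, at 98.5, 104 and 102 RPKM in WT and 99.0, 112 and 112 RPKM in KO. Its groups overlapped, and the 95% interval of its change ran from -0.08 to 0.24.

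Of the enzymes that act on mevalonate and its products, 0 were called. Mvk, mevalonate kinase, stood at 1.35, 0.764 and 0.620 RPKM in WT and 1.19, 1.32 and 0.716 RPKM in KO, from 67 to 143 reads a library. Pmvk, the next kinase, had means of 2.73 ± 0.581 RPKM in WT and 3.07 ± 0.414 RPKM in KO, and Mvd, the decarboxylase, of 8.15 ± 1.46 and 7.39 ± 1.27 RPKM (SD, n = 3 each). The groups of all 3 genes overlapped. Idi1, the isomerase that makes the reactive building block, stood at 2.25, 2.65 and 2.34 RPKM in WT and at 2.17, 2.15 and 2.17 RPKM in KO. Every KO value lay below every WT value, yet the change of -0.11 ± 0.09 (SE) was close in size to its error and was not called (limma adjusted p = 0.58). Fdps, which makes farnesyl diphosphate, had overlapping groups with means of 2.09 ± 0.204 and 1.96 ± 0.239 RPKM (SD, n = 3 each).

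Fdft1, squalene synthase, commits the chain to sterols and was the highest of the 30 genes. It stood at 155, 153 and 166 RPKM in WT and 160.5, 158 and 165 RPKM in KO. Groups overlapped, and the 95% interval of its change, from -0.11 to 0.17, was the narrowest of all members. Squalene synthase and the next enzyme, squalene epoxidase, therefore differed widely in transcript level. The ratio of Fdft1 to Sqle was 29.9 ± 1.86 in WT and 22.8 ± 3.08 in KO (SD, n = 3 each). Some exons of Fdft1 overlap those of Ctsb on the other strand.

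Between squalene and cholesterol 1 of the 10 members was called. Sqle, the epoxidase, stood at 5.44, 5.24 and 5.18 RPKM in WT and 6.59, 8.21 and 6.67 RPKM in KO. The groups were separate, with KO replicate 2 the highest, and the change of 0.37 ± 0.10 (SE) had an adjusted p of 0.10 in limma. It passed the threshold when libraries were weighted by their quality (adjusted p = 0.047). Lss, which closes the rings to lanosterol, had overlapping groups at 1.96 ± 0.139 and 1.89 ± 0.440 RPKM (SD, n = 3 each).

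Cyp51, the demethylase of lanosterol, stood at 2.07, 2.44 and 1.85 RPKM in WT and 2.30, 3.22 and 2.61 RPKM in KO. The groups overlapped (log2 change 0.25 ± 0.13, SE; limma adjusted p = 0.33), and some of its exons overlap those of Akap9 on the other strand. Tm7sf2, the sterol reductase that follows, stood at 1.85, 1.42 and 1.61 RPKM in WT and 1.15, 1.20 and 1.22 RPKM in KO. Every KO value was below every WT value, with a ratio of means of 0.73. On the log2(RPKM + 1) scale the change was -0.26 ± 0.11 (SE; limma adjusted p = 0.24). Tm7sf2 was the 1 member lower in KO at an unadjusted p under 0.05. Some exons of Tm7sf2 overlap those of Vps51 on the same strand.

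Removal of the next methyl groups takes 3 genes, of which 0 were called. Msmo1, the methylsterol oxidase, had means of 7.94 ± 0.630 and 8.30 ± 0.255 RPKM in WT and KO, and Hsd17b7, a sterol ketone reductase, of 25.0 ± 3.39 and 24.5 ± 2.62 RPKM (SD, n = 3 each). Nsdhl, the decarboxylating dehydrogenase, stood at 23.8, 24.9 and 26.0 RPKM in WT and 30.03, 26.2 and 31.0 RPKM in KO. Its groups were narrowly separate, between 26.0 RPKM in WT and 26.2 RPKM in KO, and the change was 0.21 ± 0.08 (SE; limma adjusted p = 0.21).

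The last enzymes differed from each other. Ebp, the sterol isomerase, stood at 0.862, 1.09 and 0.643 RPKM in WT and 1.71, 1.597 and 1.27 RPKM in KO, from 60 to 155 reads a library. The groups were separate with a ratio of means of 1.77. The change of 0.44 ± 0.13 (SE), understated by the added 1 RPKM, had a limma adjusted p of 0.13. Ebp needed its KO values to pass the filter, as 1 WT library reached 1 RPKM. Sc5d (chromosome 9, 42251595 to 42264256, minus strand, GRCm38) takes the product of that isomerase. It stood at 9.19, 8.94 and 8.15 RPKM in WT and 19.0, 19.2 and 26.9 RPKM in KO, from 1549 to 1768 reads in a WT library and 3631 to 5679 in a KO library. KO replicate 3 was the highest and all KO libraries lay above all WT libraries, with a ratio of means of 2.48. The log2 change was 1.20 ± 0.13 (SE; limma adjusted p = 0.0036) and 1.05 without KO replicate 3 (adjusted p = 0.0027). Dhcr7, the reductase that uses the product of Sc5d, averaged 4.90 ± 0.198 RPKM over the WT libraries and 4.88 ± 0.491 RPKM over the KO libraries (SD, n = 3), and the groups overlapped. The ratio of Sc5d to Dhcr7 was 1.80, 1.89 and 1.68 in the WT libraries and 4.34, 3.59 and 5.51 in the KO libraries.

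**Figure D3:**
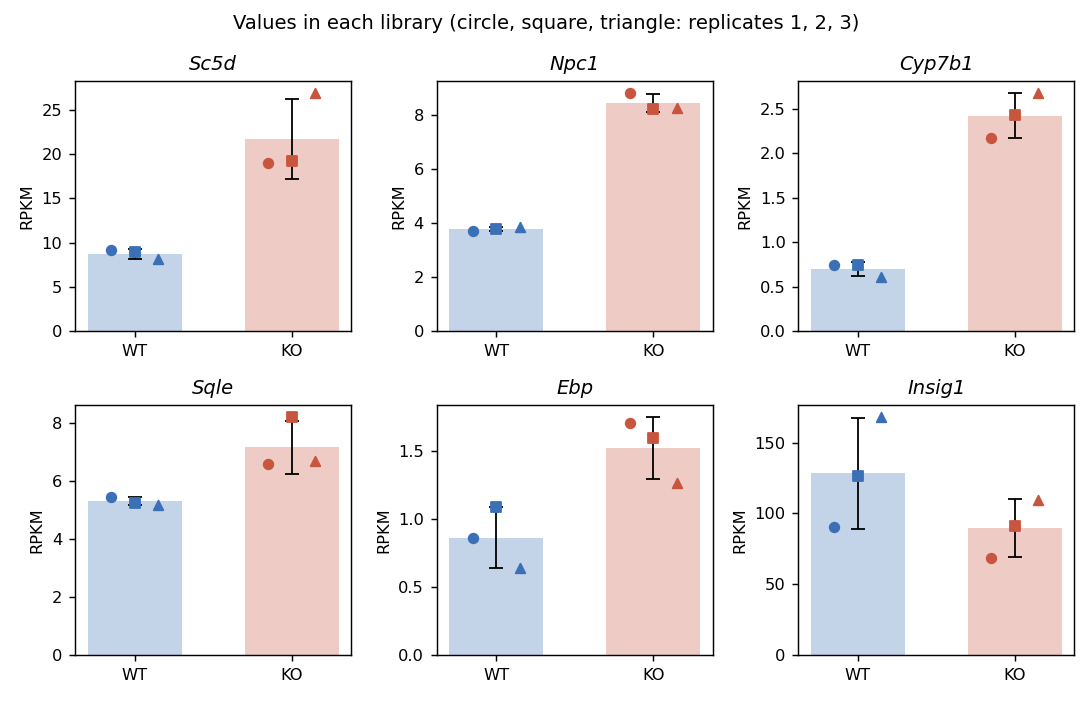
RPKM in each library (points), group means (bars) and SD (error bars, n = 3) of the 3 genes called, Sc5d, Npc1 and Cyp7b1, and of Sqle, Ebp and Insig1, which were not called. Groups are separate in every panel but that of Insig1.

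Sterol sensing genes showed 0 called of 5, and 0 of the 5 had an unadjusted p under 0.05. Srebf1 stood at 16.6, 16.6 and 15.02 RPKM in WT and 17.0, 17.8 and 20.2 RPKM in KO. Its groups were separate by 0.37 RPKM (log2 change 0.18 ± 0.09, SE; limma adjusted p = 0.32). Srebf2, the paralog that mainly drives cholesterol genes, stood at 4.19, 4.67 and 3.90 RPKM in WT and 4.16, 4.49 and 4.52 RPKM in KO, and its groups overlapped. Srebf1 exceeded Srebf2 in all 6 libraries, by a ratio of 3.79 ± 0.214 in WT and 4.18 ± 0.261 in KO (SD, n = 3 each). Some exons of Srebf1 overlap annotated exons of Rai1 on the other strand.

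Insig1, which retains Scap, varied most between libraries of the same genotype among members above 20 RPKM. It stood at 90.4, 126 and 168 RPKM in WT and at 68.7, 91.2 and 109 RPKM in KO. The lowest WT value lay under the middle KO value, so the groups overlapped, and the coefficient of variation was 30.4% in WT and 22.7% in KO. The mean change of -0.49 ± 0.23 (SE; adjusted p = 0.30) had a 95% interval from -1.03 to 0.05, the widest of the uncalled members. Insig2, its paralog, stood at 4.43, 4.41 and 4.77 RPKM in WT and 4.90, 4.39 and 4.12 RPKM in KO, with overlapping groups. Insig1 exceeded Insig2 by a ratio of 28.1 ± 7.47 in WT and 20.5 ± 6.28 in KO (SD, n = 3 each). Scap, the escort, had means of 38.8 ± 1.99 and 39.9 ± 3.59 RPKM (SD, n = 3 each), with overlapping groups.

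Among the 7 genes of transport, storage and conversion, 6 were tested and 2 were called, both higher in KO. Npc1 (chromosome 18, 12189692 to 12236400, minus strand, GRCm38) stood at 3.71, 3.78 and 3.86 RPKM in WT and at 8.83, 8.24 and 8.26 RPKM in KO. The SD within each genotype was small beside the difference, and the ratio of means was 2.23. In limma its change was 0.98 ± 0.08 on the log2 scale (SE), with an adjusted p of 6.2e-04. Npc2, the soluble lysosomal protein that hands cholesterol to Npc1, stood at 13.9, 14.5 and 15.1 RPKM in WT and 16.8, 14.8 and 15.02 RPKM in KO, with overlapping groups. The ratio of Npc1 to Npc2 was 0.267, 0.261 and 0.256 in WT and 0.527, 0.557 and 0.550 in KO. Annotated exons of Npc1 overlap those of Rmc1 and of Gm15956 on the other strand, and it is not stated whether reads were counted by strand.

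Cyp7b1 (chromosome 3, 18071950 to 18243338, minus strand, GRCm38) hydroxylates oxysterols, which marks them for disposal. It stood at 0.746, 0.739 and 0.605 RPKM in WT and at 2.16, 2.42 and 2.67 RPKM in KO. These values rest on 53 to 65 reads in a WT library and 184 to 251 in a KO library. The groups were separate with a ratio of means of 3.47, and the log2 change was 1.01 ± 0.11 (SE; limma adjusted p = 0.0027). With 1 RPKM added to each value the change of so low a gene is understated, and on the recovered reads it was 1.79.

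The carriers and the storage enzyme gave no call. Soat1, which esterifies cholesterol for storage in droplets, stood at 13.8, 18.1 and 15.2 RPKM in WT and 15.4, 19.4 and 17.7 RPKM in KO. Stard4, a cytosolic sterol carrier, had means of 8.11 ± 0.726 and 7.49 ± 0.192 RPKM, and Scarb1, the receptor that takes up cholesterol from high-density lipoprotein, of 6.85 ± 1.42 and 7.34 ± 1.17 RPKM (SD, n = 3 each). All 3 genes had overlapping groups. Abca1, which exports cholesterol to lipoprotein, was below the filter and was not tested. It stood at 0.281, 0.185 and 0.0788 RPKM in WT and at 0.371, 0.693 and 0.296 RPKM in KO, from 33 to 101 reads in a WT library and 133 to 290 in a KO library. Every KO value was above every WT value.

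Of the 29 tested members, 8 had all KO values above all WT values and 2 had all KO values below, against 13.5% and 12.2% of all tested genes. Cyp7b1 and Ebp, which needed KO values to pass the filter, are among the 8. Intervals of the 26 members not called were read as folds of RPKM + 1. The 95% interval stayed within 1.5-fold in either direction for 23 and within 2-fold for 25. The exceptions at 1.5-fold were Sqle, Ebp and Insig1. On this compressed scale the interval covers less than it seems, most of all for genes of low RPKM. With 9 synthesis enzymes under 3 RPKM in WT, these counts do not carry over to folds of RPKM itself. Within KO, replicate 2 was the highest library for 10 of the 18 synthesis enzymes and replicate 1 the lowest for 10. Within WT, replicate 2 was the highest for 9.

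Summed markers of granulosa and stromal cells were higher in the KO libraries, although few of the single markers were called. The summed level of 22 granulosa and cumulus markers was 356, 351 and 214 RPKM in WT replicates 1, 2 and 3 and 397, 406 and 522 RPKM in KO replicates 1, 2 and 3. Of the 17 tested, 16 had a positive change and 1, Nr5a1, was called. Esr2, named here after its values were seen, had the 1 negative change and was not called. It stood at 35.8, 37.0 and 33.1 RPKM in WT and at 30.9, 32.2 and 28.3 RPKM in KO. Ptx3, a marker of expanded cumulus, was listed at 0 in 5 of the 6 libraries. Inha, an inhibin subunit named here after its values were seen, made up 203, 197 and 104 RPKM of the WT sums and 227, 242 and 310.3 RPKM of the KO sums and was not called (limma adjusted p = 0.20). For 14 stromal and smooth muscle markers the sums were 32.0 to 40.9 RPKM in WT and 41.5 to 54.7 RPKM in KO, with Acta2 the 1 called of 9 tested. Of these 9, 8 had a positive change. Myh11, the most abundant of them in WT, went the other way and was not called. It stood at 16.2, 15.4 and 15.5 RPKM in WT and at 12.1, 14.2 and 13.7 RPKM in KO. The granulosa and the stromal sums were both higher in every KO library than in any WT library. The sum of 7 theca and luteal markers was 31.0, 132 and 25.1 RPKM in WT and 104 to 126 RPKM in KO, so the groups overlapped, and 0 of the 5 tested were called. Within each genotype, Sc5d and Cyp7b1 ranked the 3 libraries in the same order as the granulosa sum, highest in WT replicate 1 and in KO replicate 3. The stromal sum had that order in WT but the reverse order in KO, at 54.7, 51.2 and 41.5 RPKM in KO replicates 1, 2 and 3. An order of 3 libraries can match by chance, and these orders were not tested. Npc1 was highest in WT replicate 3 and KO replicate 1. In libraries of this kind, a change in the number of cells of a type and a change in RNA per cell cannot be told apart, and the part of these cells in the rise of Sc5d, Npc1 and Cyp7b1 was not tested.

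**Figure D4:**
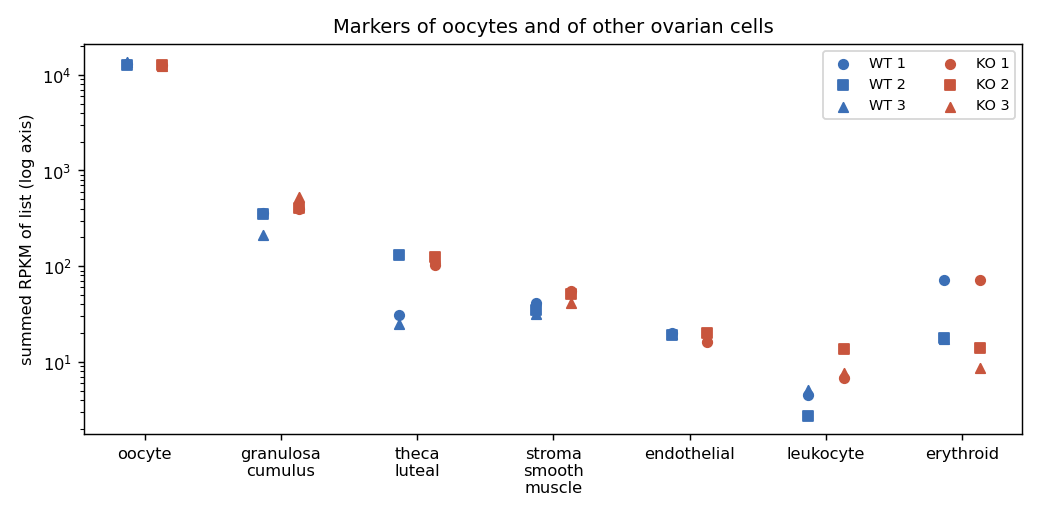
Summed RPKM of each marker list (log axis) in each library, WT in blue and KO in red. The oocyte sum is 12341 to 13674 RPKM in all libraries, and the granulosa and stromal sums are higher in each KO library than in each WT library.

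Endothelial markers (5 genes) summed to 19.0 to 20.1 RPKM in WT and 16.3 to 20.2 RPKM in KO, and 4 erythroid markers to 17.2 to 72.3 and 8.71 to 71.1 RPKM. Leukocyte markers (6 genes) summed to 2.71 to 5.12 RPKM in WT and 6.71 to 13.6 RPKM in KO, with 2 or 3 of the 6 listed at 0 in each WT library and 0 of them in KO. None of these 3 lists held a called gene.

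The 3 genes called lie on different chromosomes, and the 30 genes on 17. Sc5d and Scap share chromosome 9 with Khdc3. Sc5d lies at a distance of 30.8 Mb from Khdc3, and Scap, with a log2 change of 0.04, was not called. Within 5 Mb of Sc5d, 3 of 44 tested neighbours with coordinates were called (6.82%), 2 of them higher. Within 5 Mb of Npc1 it was 3 of 26 (11.5%), 1 higher and 2 lower, all within 2 Mb. Around Cyp7b1 it was 0 of 16. Of all 10138 tested genes with coordinates, 2.51% were called. These counts describe the neighbourhoods and were not tested.

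**Figure D5:**
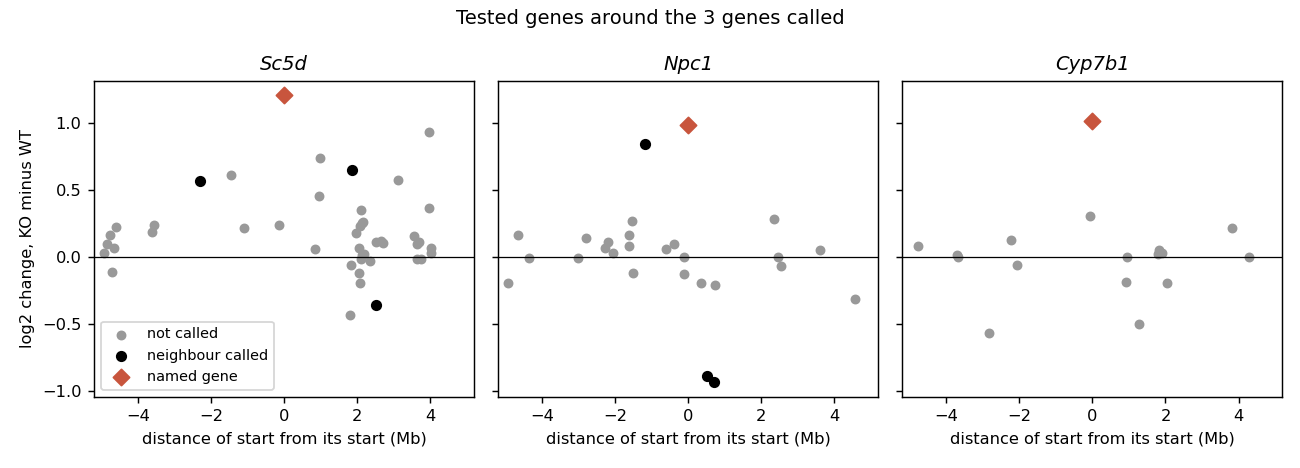
Log2 change in KO of tested genes within 5 Mb of Sc5d, Npc1 and Cyp7b1 (y axis) by distance of their starts (x axis, Mb). The named gene is the highest point of each panel, and called neighbours number 3, 3 and 0.

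Further genes of the pathway came from a list of 59, of which 39 were tested, 2 were called higher and 2 lower, with a median change of 0.07. Pgrmc1, a membrane haem protein that binds sterol-modifying cytochromes, rose from 20.1 ± 1.54 to 31.9 ± 2.79 RPKM (mean ± SD, n = 3 each), a limma change of 0.64 ± 0.09 (SE) with an adjusted p of 0.012. Osbp, which exchanges sterol between the endoplasmic reticulum and the Golgi, fell from 15.2 ± 0.353 to 9.69 ± 1.24 RPKM, a change of -0.61 ± 0.10 (SE) with an adjusted p of 0.018. These calls of Pgrmc1 and Osbp held under fewer alternatives than those of the 3 members. Pgrmc1 lost its call without KO replicate 2 (adjusted p = 0.052). Osbp lost it without WT replicate 1, 2 or 3 or KO replicate 3 (0.053, 0.066, 0.059 and 0.063). When genes of any level were tested, the adjusted p was above the threshold for both (0.062 for Pgrmc1 and 0.080 for Osbp).

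Of 13 further sensing genes 0 were called by limma, and 1 had an unadjusted p under 0.05. This was Rxra, a partner of the liver X receptors, with means of 2.81 ± 0.185 RPKM in WT libraries and 1.86 ± 0.257 RPKM in KO libraries (SD, n = 3). Its change of -0.42 ± 0.11 (SE) had an adjusted p of 0.085. It was called with library weights (0.030) and on the recovered reads with voom (0.048). The ubiquitin ligase genes Rnf139 and Rnf145 followed, with changes of -0.16 and -0.25 that were not called. In the further transport list, Tspo, an outer mitochondrial membrane protein that binds cholesterol, stood at 1.26 ± 0.290 and 2.46 ± 0.770 RPKM (adjusted p = 0.11) and Osbpl2, an Osbp relative, at 19.1 ± 0.357 and 16.7 ± 0.217 RPKM (adjusted p = 0.18).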

How the data were processed

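RNA of 3 WT and 3 Khdc3-null oocyte libraries was grouped by sample title. Per the labels' protocols, RNA came from a PicoPure extraction and the library kit keeps strand. The tools were STAR 2.6.0c, featureCounts 1.6.2 and FastQC 0.11.7, with the build GRCm38.p6, per the submitters' processing notes, and the strand setting and annotation are not given in the sources used here. The authors deposited RPKM values, 1 column per library.

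Values were tested as log2(RPKM + 1) in limma 3.58.1 (R 4.3.3, trended prior, genotype the only covariate) for the 12272 genes with RPKM 1 or more in at least 3 of 6 libraries, with Benjamini-Hochberg adjustment over all of them. The fit was tested on simulated reads that had the same added spread for every gene, so that test does not cover genes that vary more. With exon lengths of GENCODE M21 (GRCm38), whole reads (tolerance 0.01) came out in every library for 92.4% of 19633 matched genes. For 3021 other tested genes, Npc1 and Tm7sf2 among them, the smallest length giving whole reads was used, so a common factor may be missing from their reads. Pairs of libraries of a genotype were not duplicates (the chi-square statistic was at least 16.1 times its degrees of freedom). Promoters came from RefSeq. Alternatives were other pseudocounts, filters, scaling, weights, prior and threshold, the replicate number as a block, each library left out, and voom on recovered reads.

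The members, lists and tests were chosen with earlier results of these data known. Values in every library are given for members called, the 12 with the smallest p, the first 3 by WT level, paralog pairs and the untested member. Of the further genes, called ones and the 3 with the smallest p per list are named. The results of some genes are not reported here. Figures were drawn with matplotlib 3.10.9 (Python 3.11.15).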

Additional observations from a re-analysis of the deposited data

How the results depend on the processing

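Sc5d, Npc1 and Cyp7b1 were called under every alternative in which they were tested, 16, 16 and 15 in number, since Cyp7b1 could not enter with a filter of RPKM 5. Their highest adjusted p was 0.036, 0.0064 and 0.024, and their log2 changes ran from 1.05 to 1.30, 0.95 to 1.16 and 0.96 to 1.79. The count of members called higher was 2 with the filter of RPKM 5, 4 with library weights, where Sqle joined, and 3 otherwise. The count called lower was 0 except with the replicate number as a block. With that replicate block 1 member, Insig1, was called lower (adjusted p = 0.034) and 320 genes in all. The numbers do not pair the libraries: deviations of same-numbered libraries correlated at -0.02, 0.21 and -0.03, and 2 of the 6 libraries correlated best with their own number. Over all genes the 336 calls became 94 with no filter, 222 with a filter of RPKM 5, 662 with library weights, 693 at an adjusted p of 0.1 and 151 to 289 with single libraries left out. Leaving out WT replicate 2 or 3 or KO replicate 2 or 3 lowered that count by over 1.5 times (to 195, 161, 152 and 151). Without WT replicate 1 or KO replicate 1 it was 261 and 289. Fewer samples enter each of these fits, and the cause of the shifts was not tested. Of 29 tested members, 9 uncalled ones changed sign in 17 of the 451 combinations of member and setting, so the signs of small changes are not settled. At fewer than 100 reads in some library, Mvk, Ebp, Cyp7b1 and Abca1 rest on the least depth.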

Other observations

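Osbpl1a, a relative of the oxysterol-binding protein Osbp that is found on late endosomes, lies 0.71 Mb from the start of Npc1 and was noticed among its called neighbours after the values were seen. It stood at 4.96, 4.10 and 4.18 RPKM in WT and at 1.55, 1.97 and 1.98 RPKM in KO, with separate groups (log2 change -0.93, limma adjusted p = 0.0054). It and Npc1 thus moved in opposite directions.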
